A study of Mus musculus with 2 samples.

Results

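The transcription factors that direct CD4 T cells into lineages other than Th17 were followed in Th17 cells with and without Cre-mediated deletion of *Fak*. They are *Gata3*, *Tbx21*, *Foxp3*, *Eomes*, *Bcl6*, *Ikzf2*, *Prdm1*, *Id2*, *Id3* and *Zbtb7b*. These 10 genes were taken by symbol from 23282 gene rows, and each symbol matched 1 row. Naïve CD4 T cells from spleens of *Fak* fl/fl mice (female mice 6 to 8 weeks old, per the study's methods) carried the floxed allele in both arms. The control arm received a retrovirus without Cre (control RV) and the other arm RV-Cre, whose Cre recombinase removes the floxed part of *Fak*. All cells were activated with plate-bound anti-CD3ε at 10 μg/ml and soluble anti-CD28 at 5 μg/ml for 20 to 24 h before transduction and were then kept for 3 days in Th17-polarizing medium. That medium held IL-6 (50 ng/ml), human TGFβ1 (1 ng/ml), TNF-alpha (1 ng/ml) and IL-1beta (2 ng/ml), and antibodies to IFNγ and IL-4 at 5 μg/ml each, so that the cytokines that favour Th1 and Th2 fates were blocked in both arms. GFP+ cells were sorted and 500 ng of their RNA entered a QuantSeq library, which reads transcripts near the 3′ end. The genotype label calls the control WT, whereas its title gives *Fak* fl/fl cells with control RV, and the title was used. No library of cells with Cre and an intact *Fak* gene was analysed here, so that Cre and the loss of *Fak* cannot be told apart.

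CD4 T cells choose between effector fates through a small set of transcription factors that oppose each other. T-bet (*Tbx21*) and eomesodermin (*Eomes*) are T-box factors, T-bet being the master factor of Th1 cells, and GATA3 is that of Th2 cells. FOXP3, with Helios (*Ikzf2*), marks regulatory T (Treg) cells. BCL6 directs follicular helper (Tfh) cells and is antagonised by Blimp-1 (*Prdm1*). ID2 and ID3 have no DNA-binding region of their own and hold E proteins away from DNA, and ThPOK (*Zbtb7b*) keeps helper cells from the CD8 fate.

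There was 1 library per condition, with 13799264 counted reads for the control and 12305010 for RV-Cre, so the differences below could not be checked against replicates and carry no p-values. Counts were scaled by the TMM method and set side by side as log2(normalized count + 1). A gene entered the comparison with a log2 value of at least 4 (15 normalized reads) in at least 1 library, and was called higher or lower in RV-Cre at a ratio of at least 2-fold. Each ratio is given with a 95% interval (exact Clopper-Pearson, from how the reads of a gene divide between the libraries), and such intervals cover counting error only. In this order (control, then RV-Cre), which is kept below, *Ptk2*, the symbol of *Fak*, had 110 and 31 reads. The floxed part is not given in the sources used here and the reads lie near the 3′ end, so this count is no direct check of the deletion. In libraries of whole cell populations, fewer cells with a transcript and less of it per cell cannot be told apart.

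All 10 factors had reads in both libraries and passed the expression minimum. 1 factor, *Gata3*, was called higher and 1, *Tbx21*, was called lower in the RV-Cre library, while 8 stayed within 2-fold. Of the 12112 genes past the minimum, 14.2% were called higher and 12.3% lower, so the number of factors called was near the share over all genes. These shares include genes that passed the minimum in 1 library only. Where both libraries had to reach it, which *Eomes* did not, 7.19% of all genes were called higher and 10.4% lower. The median log2 ratio was -0.10 over the 10 factors and -0.01 over all genes past the minimum. The 95% counting interval left out a ratio of 1 for 5 of the 10 factors (*Gata3*, *Tbx21*, *Foxp3*, *Ikzf2* and *Id3*), and for 74.7% of all genes past the minimum.

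**Figure D1:**
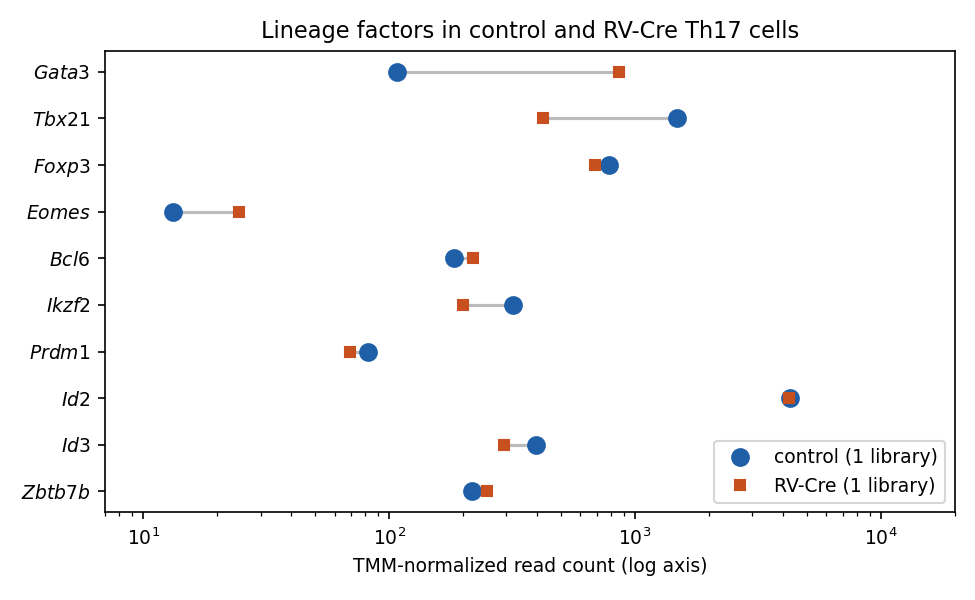
TMM-normalized read count (log axis) of each lineage factor in the control library (circles) and the RV-Cre library (squares), joined by a line. *Gata3* and *Tbx21* have the longest lines, in opposite directions, and the *Id2* symbols lie on top of each other.

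The share of genes called was smaller at greater read depth, so each factor was also placed among genes of similar depth. Among genes with a mean log2 value of 8 to 10, the band of *Gata3*, *Tbx21*, *Foxp3* and *Id3*, 4.05% were called higher and 8.60% lower. In the band from 6 to 8, which holds *Bcl6*, *Ikzf2*, *Prdm1* and *Zbtb7b*, the shares were 9.48% and 14.5%. They were 28.8% and 19.0% from 4 to 6, where *Eomes* lies, and 3.28% and 6.07% at 10 and over, where *Id2* lies. Genes past the minimum with a mean log2 value under 4 are in none of these bands, and no factor lies among them. They passed the minimum in 1 library only and are counted in the shares over all genes. In its own band of 3803 genes, *Gata3* was exceeded by 1 gene, and *Tbx21* had a higher ratio than 53 genes.

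**Figure D2:**
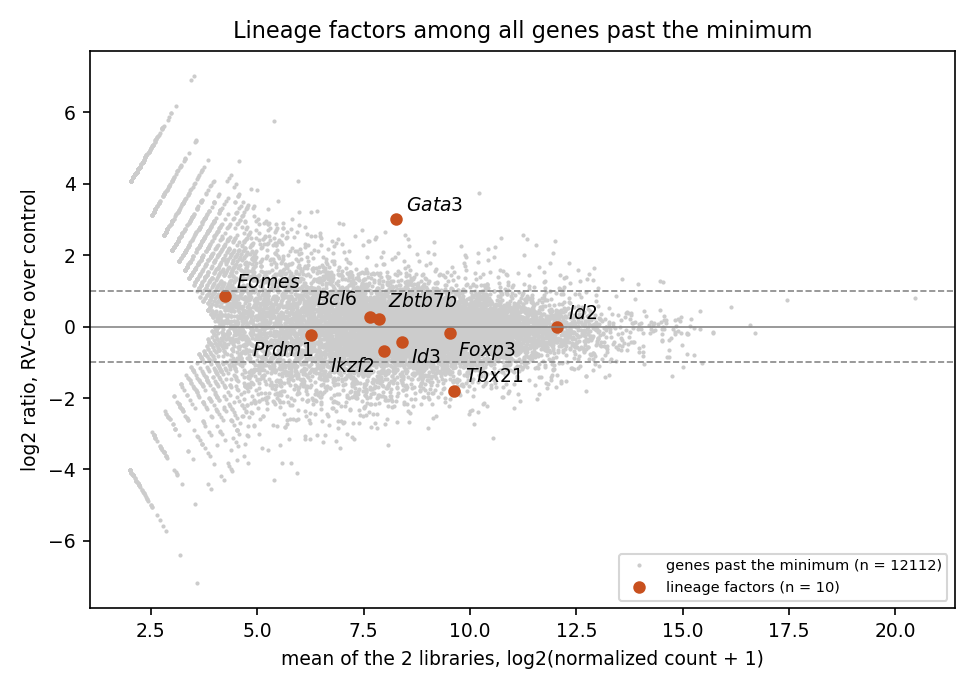
Log2 ratio of RV-Cre over control against the mean log2(normalized count + 1) of both libraries, for the 12112 genes past the minimum (grey) and the 10 lineage factors (orange), with dashed lines at 2-fold. *Gata3* lies at the upper edge and *Tbx21* toward the lower edge of genes of their depth, and the other 8 lie between the dashed lines.

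The promoters of both called factors are shown beside their values, with that of *Bcl6*, chosen after its matches to a STAT-type motif were seen. They come from RefSeq (GRCm38.p6, which is mm10), are 300 bases long and span an annotated start. The printed windows of *Gata3* and *Bcl6* lie inside the gene spans given below, downstream of the 5′ end of the span. The 5′ end of the *Gata3* span had no entry. The table held 12 promoters for 9 of the 10 factors, *Ikzf2* being without an entry. Both strands were searched for the motif of the GATA family in the form AGATAA, for the E-box CANNTG (bound by the E proteins that ID2 and ID3 hold back), for its form CAGGTG, which is also counted under CANNTG, for TTCNNNGAA, which STAT factors bind, and for the NF-kB consensus. Capitals mark matches to CANNTG and TTCNNNGAA. The sequences below are those of *Gata3* (chr2:9878551-9878850, minus strand), *Tbx21* (chr11:97115282-97115581, minus strand) and *Bcl6* (chr16:23981234-23981533, minus strand), 5′ to 3′.
Gata3: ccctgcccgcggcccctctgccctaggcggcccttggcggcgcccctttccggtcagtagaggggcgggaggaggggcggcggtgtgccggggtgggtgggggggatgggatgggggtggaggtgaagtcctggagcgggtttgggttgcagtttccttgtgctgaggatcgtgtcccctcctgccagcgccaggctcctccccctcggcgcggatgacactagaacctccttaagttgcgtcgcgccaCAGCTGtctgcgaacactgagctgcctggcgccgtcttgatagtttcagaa
Tbx21: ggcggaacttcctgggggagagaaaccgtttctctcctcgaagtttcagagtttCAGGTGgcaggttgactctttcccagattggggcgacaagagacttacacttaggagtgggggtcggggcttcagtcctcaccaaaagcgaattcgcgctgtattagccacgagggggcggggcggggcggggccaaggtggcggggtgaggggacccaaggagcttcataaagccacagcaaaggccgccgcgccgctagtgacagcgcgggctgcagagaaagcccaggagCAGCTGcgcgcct
Bcl6: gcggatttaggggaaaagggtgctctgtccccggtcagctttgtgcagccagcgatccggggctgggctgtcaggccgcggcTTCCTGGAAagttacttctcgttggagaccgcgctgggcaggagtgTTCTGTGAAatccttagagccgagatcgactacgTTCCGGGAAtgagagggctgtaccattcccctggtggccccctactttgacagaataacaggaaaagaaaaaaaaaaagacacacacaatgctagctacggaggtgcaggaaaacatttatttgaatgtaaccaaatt

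The *Gata3* window has 1 E-box, at bases 250 to 255 from its 5′ end, 67.3% GC and 22 CpG dinucleotides. The *Tbx21* window has 2 E-boxes, at bases 55 to 60 and 288 to 293, 62% GC and 21 CpG dinucleotides. The median promoter of the RefSeq table had 52.7% GC and 7 CpG dinucleotides, so the windows of both called factors are CpG-rich. This was not particular to them, since the 12 promoters of the factors had a median of 59.8% GC. Uncalled factors had 21 CpG dinucleotides (*Id2*), 20 (*Prdm1*), 19 (*Id3*), and 14 and 31 (*Bcl6*). Fewer were in the windows of *Eomes* (10), *Foxp3* (6 and 8) and *Zbtb7b* (7 and 8). CANNTG was in 9 of the 12 promoters of the factors and in 72.3% of all 32851 promoters, and CAGGTG in 3 of 12 and 20.2%. AGATAA was in 1 of 12, that of *Foxp3* at chrX:7580233-7580532, against 11.2% of all promoters. TTCNNNGAA was in 3 of 12 and in 8.30% of all promoters. The 3 are both windows of *Bcl6* and that of *Foxp3* at chrX:7580233-7580532, so they are not 3 separate genes. The *Bcl6* window printed above holds it 3 times, as only 11 of the 32851 promoters (0.0335%) do at least that often. The NF-kB consensus was in 0 of the 12 and in 4.51% of all promoters, which says only that these letters are not in these windows. A match is a description of the sequence and was not tied to the read counts.

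Of the Th2 factor *Gata3*, 114 reads were counted in the control and 814 in the RV-Cre library. The normalized ratio was 8.06 (95% interval 6.62 to 9.89), a log2 ratio of 3.00, and 337 of the 12112 genes past the minimum had a higher one. The gene lies on chromosome 2 (GRCm38, 9857078 to 9887953, minus strand). The lncRNA genes *4930412O13Rik* and *9230102O04Rik* overlap its body but not its last exon, and both had 0 reads in each library. The 3 genes nearest to *Gata3* by Euclidean distance over the log2 values of both libraries were *Klf3* (113 and 816 reads, distance 0.01), *A930005H10Rik* (155 and 811 reads, distance 0.44) and *Dapl1* (108 and 601 reads, distance 0.44).

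The Th2 genes around *Gata3* differed in both directions. Of 18 listed genes, 15 passed the minimum, 2 were called higher (*Epas1* with 9 and 35 reads and *Bhlhe41* with 8 and 28 reads) and 6 lower, with a median log2 ratio of -0.20. The Th2 cytokine *Il13* had 50 reads in the control against 5 with RV-Cre, at a ratio of 0.113 (0.0351 to 0.281). *Il4* had 0 reads in both libraries, which allows up to 3 reads in each (0.217 and 0.244 CPM, counts scaled to equal library totals), and *Il5* had 1 and 0 reads. *Il10* (255 and 39 reads) and *Il24* (71 and 7 reads) were also lower. Among partners of GATA3, *Zfpm1*, which encodes its cofactor FOG-1, had 513 and 700 reads and a log2 ratio of 0.62. *Gfi1*, a repressor that acts with GATA3 in Th2 expansion, was called lower with 893 and 302 reads, a log2 ratio of -1.39. *Stat6*, which carries the IL-4 signal to *Gata3*, had 1222 and 1103 reads and a log2 ratio of 0.03. Of the GATA relatives, *Gata1* had 14 and 31 reads and *Gata2* 7 and 0 reads.

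*Tbx21*, which encodes T-bet, had 1569 reads in the control and 399 in the RV-Cre library. The ratio was 0.287 (95% interval 0.256 to 0.321), a log2 ratio of -1.80, and 504 of the genes past the minimum had a lower one. No annotated gene overlaps *Tbx21* (chromosome 11, 97098007 to 97115331, minus strand). Its nearest genes over the log2 values of both libraries were *Hist1h2ai* (1551 and 409 reads), *Dpy30* (1654 and 409 reads) and *Cdc6* (1473 and 381 reads), the first being a histone gene and the third a DNA replication gene. *Eomes* (chromosome 9, 118478186 to 118486132, plus strand), the other T-box factor, had 14 and 23 reads. Its ratio of 1.85 had a 95% interval from 0.914 to 3.90, so a difference was not detectable at this depth.

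Of 18 Th1 genes, 17 passed the minimum, 1 was called higher and 5 lower, and the median log2 ratio was 0.01. The Th1 cytokine *Ifng* had 126 and 41 reads, and the ratio was 0.367 (0.252 to 0.526). *Il12rb1*, a chain of the IL-12 and IL-23 receptors, had 673 and 140 reads (log2 ratio -2.08) and *Ly6c2* had 217 and 21 reads (log2 ratio -3.14). These genes were lower in the RV-Cre library in the same direction as *Tbx21*. *Il18r1* was called higher with 36 and 65 reads, and *Hlx*, a homeobox factor of Th1 cells, had 19 and 30 reads and a log2 ratio of 0.80. *Runx3*, a partner of T-bet, had 4258 and 4639 reads and a log2 ratio of 0.30.

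*Foxp3*, the Treg factor, had 830 reads in the control and 650 in the RV-Cre library. The ratio was 0.884 (95% interval 0.796 to 0.980) and the log2 ratio -0.18. A 99% interval ran from 0.771 to 1.01 and held 1, so the lower value was beyond counting error at 95% but not at 99%. The 99% interval left out 1 for 4 of the 10 factors and for 66.9% of all genes past the minimum. With *Gapdh* as the reference its log2 ratio was 0.24 and that of the median gene 0.41, so *Foxp3* lay below the median gene under both scalings. The gene lies on the X chromosome (7579676 to 7595243, plus strand), and its 3′ end runs into *Ccdc22* on the other strand. *Ccdc22* covers 61.3% of the 2346 bases of the last *Foxp3* exon in GENCODE M21, the part of a transcript where QuantSeq reads fall. *Ccdc22* itself had 624 and 490 reads, and its ratio was 0.886 (0.786 to 0.999). Whether counting used the strand is not given in the sources used here, so reads of *Foxp3* and *Ccdc22* in the shared bases cannot be told apart.

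*Ikzf2*, which encodes Helios (chromosome 1, 69531207 to 69687351, minus strand), had 340 and 188 reads. The ratio was 0.624 (95% interval 0.519 to 0.748), a log2 ratio of -0.68, the lowest of the 10 factors after *Tbx21*. Its Ikaros relatives went both ways within 2-fold, *Ikzf1* with 2915 and 4354 reads (log2 ratio 0.75), *Ikzf3* with 1361 and 1044 reads (-0.21), *Ikzf4* with 1014 and 816 reads (-0.14) and *Ikzf5* with 707 and 607 reads (-0.05). Of the FOXP relatives, *Foxp1* had 8331 and 8591 reads (log2 ratio 0.22) and *Foxp4* 368 and 479 reads (0.55). Of 20 further Treg genes, 19 passed the minimum, with 2 called higher, 2 lower and a median log2 ratio of -0.14. *Lrrc32*, which encodes the TGF-β carrier GARP, had 56 and 208 reads and *Tnfrsf18* had 1884 and 5285 reads, whereas *Entpd1*, which encodes the ectonucleotidase CD39, had 461 and 47 reads and *Ctla4* had 6530 and 1409 reads. *Il2ra*, the IL-2 receptor chain CD25, had 13199 and 8627 reads and a log2 ratio of -0.44. *Stat5a* and *Stat5b*, which act below that receptor on *Foxp3*, had log2 ratios of -0.06 and -0.06.

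*Bcl6*, the Tfh factor (chromosome 16, 23965050 to 23988866, minus strand), had 196 and 207 reads. Its ratio of 1.19 had a 95% interval from 0.976 to 1.46. *Prdm1*, which encodes Blimp-1 (chromosome 10, 44437174 to 44528558, minus strand), had 87 and 65 reads, with a ratio of 0.843 and an interval from 0.602 to 1.18. Neither interval left out 1, so no difference was detectable at this depth. Of 18 Tfh genes, 17 passed the minimum, 4 were called higher and 4 lower, and the median log2 ratio was 0.22. *Cxcr5*, the follicle-homing receptor of Tfh cells, had 375 and 138 reads (ratio 0.415, 95% interval 0.339 to 0.506), and *Il21*, their cytokine, had 2987 and 1708 reads (log2 ratio -0.63). *Pou2af1* (1127 and 242 reads) and *Cd200* (753 and 283 reads) were also called lower. *Slamf6* (53 and 258 reads), *Gng4* (5 and 25 reads) and *Tcf7* (142 and 424 reads), the last encoding TCF-1 of naïve and Tfh cells, were called higher. Of the BCL6 corepressors, *Bcor* had 861 and 485 reads (log2 ratio -0.65) and *Ncor1* 6738 and 7405 reads (0.31).

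*Id2* (chromosome 12, 25093799 to 25096092, minus strand) had 4546 and 3987 reads, the most of the 10 factors. Its ratio was 0.990 (95% interval 0.948 to 1.03), the narrowest interval of the 10. *Id3* (chromosome 4, 136143822 to 136145392, plus strand) had 420 and 275 reads. Its ratio was 0.739 (0.632 to 0.862) and its log2 ratio -0.44. The E protein genes that ID proteins hold back were close to equal for *Tcf3* (998 and 876 reads, log2 ratio -0.01) and *Tcf12* (967 and 821 reads, -0.06), and *Tcf4* had 389 and 246 reads (-0.49). *Id1* had 54 and 66 reads, and *Id4* had 0 reads in both libraries. Of 18 genes of effector and memory T cells, with which *Id2*, *Id3*, *Eomes* and *Prdm1* are known to be linked, 16 passed the minimum, 7 were called higher and 2 lower, and the median log2 ratio was 0.50. Among the higher genes were *Klf2* (1175 and 5668 reads) and *S1pr1* (502 and 1792 reads), which serve recirculation of resting cells. The lower genes were the granzymes *Gzmb* (198 and 8 reads) and *Gzma* (286 and 66 reads).

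*Zbtb7b*, which encodes ThPOK (chromosome 3, 89377644 to 89393673, minus strand), had 231 and 235 reads. The ratio of 1.15 had a 95% interval from 0.953 to 1.38. The lncRNA gene *Gm15417* overlaps its 5′ part on the other strand, but not its last exon, and had 22 and 116 reads, with a ratio of 5.95 (3.75 to 9.86). *Cd4* had 1489 and 1342 reads, a log2 ratio of 0.02. The CD8 coreceptor genes, which ThPOK is known to hold down, had 322 and 580 reads for *Cd8a* (ratio 2.03, 95% interval 1.77 to 2.34) and 122 and 274 reads for *Cd8b1* (ratio 2.53, 95% interval 2.04 to 3.16). *Cbfb*, which encodes the shared subunit of RUNX factors, had 2223 and 1206 reads and a log2 ratio of -0.71, and *Satb1*, a chromatin organiser known to act on *Zbtb7b* and *Foxp3*, was called higher with 11088 and 22319 reads.

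**Figure D3:**
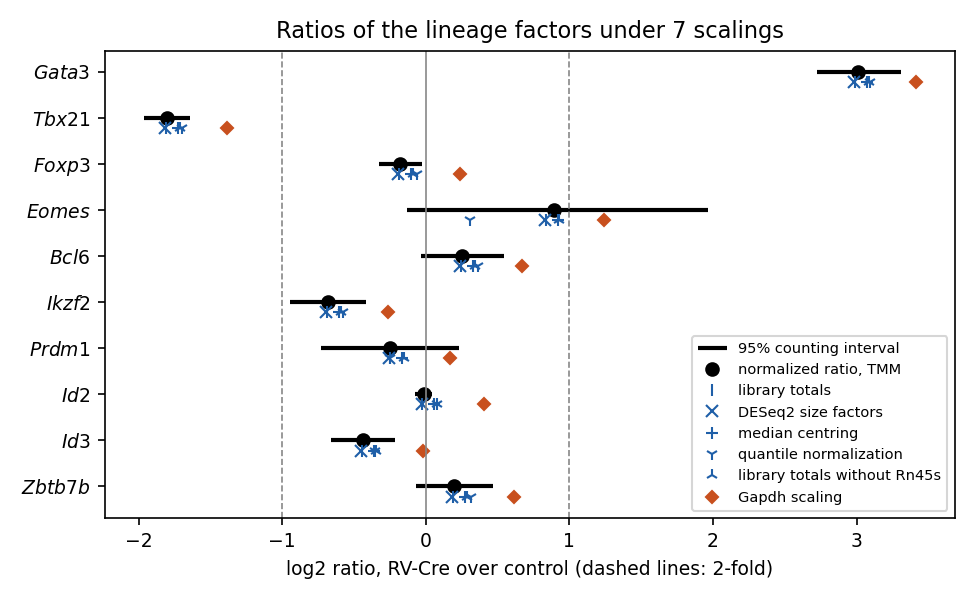
Log2 ratio of RV-Cre over control for each lineage factor with TMM scaling (black points, ratio without an added 1) and its 95% counting interval (bars), with the values under 6 other scalings drawn just below, *Gapdh* scaling in orange. *Gata3* and *Tbx21* lie beyond the dashed 2-fold lines under all 7 scalings, and *Gapdh* scaling shifts the median gene to the right by 0.42.

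The balance within pairs of factors was compared through the ratio of their reads inside each library, a measure that needs no scaling between libraries. The interval is Fisher's conditional 95% interval and covers counting error only. Of 8 pairs, 5 had an interval that left out 1. The share over all pairs of genes was not computed, and intervals of single genes left out 1 for 74.7% of genes past the minimum. Among the 5, *Gata3* to *Tbx21*, *Gata3* to *Foxp3* and *Eomes* to *Tbx21* hold a factor already called above. There were 13.8 *Tbx21* reads for each *Gata3* read in the control library, and 2.04 *Gata3* reads for each *Tbx21* read in the RV-Cre library. *Gata3* thus went from 6.77% to 67.1% of the reads of this Th1 and Th2 pair, a change of their ratio of 28.1-fold (95% interval 22.3 to 35.4). The ratio of *Gata3* to *Foxp3* changed 9.12-fold (95% interval 7.28 to 11.5).

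The ratio of *Eomes* to *Tbx21* changed 6.46-fold, with an interval from 3.15 to 13.7 that rests on the few *Eomes* reads. *Ikzf2* to *Foxp3* changed 0.706-fold (95% interval 0.571 to 0.871) and *Id3* to *Id2* 0.747-fold (95% interval 0.635 to 0.877). For *Prdm1* to *Bcl6* the change was 0.707-fold (0.477 to 1.05), for *Zbtb7b* to *Runx3* 0.934-fold (0.772 to 1.13), and for *Id2* to *Tcf3* 0.999-fold (0.903 to 1.11), intervals that hold 1.

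**Figure D4:**
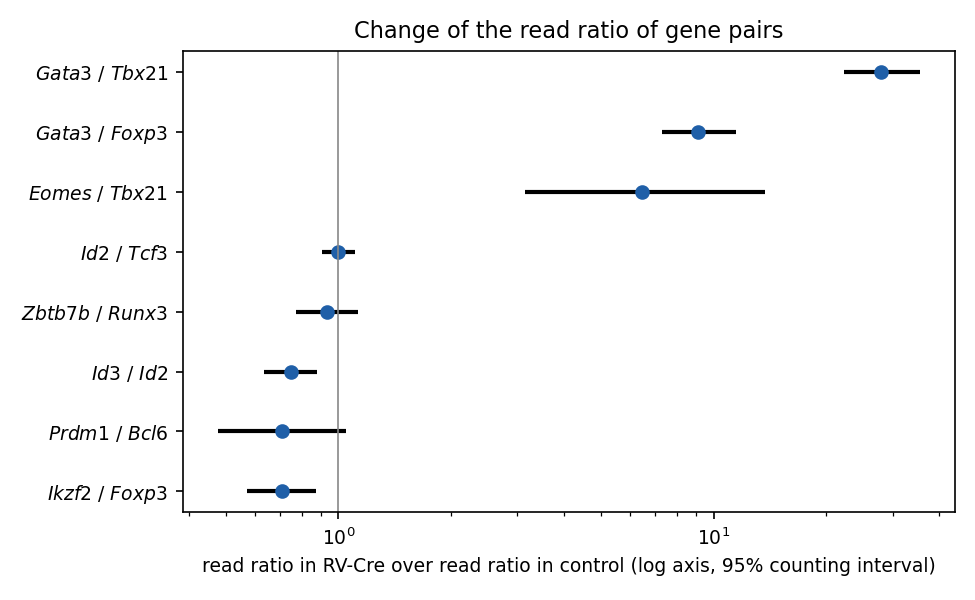
Change of the within-library read ratio of 8 gene pairs from the control to the RV-Cre library (log axis), with 95% counting intervals as bars and a line at 1. Both pairs with *Gata3* lie furthest to the right, and the bars of *Id2* to *Tcf3*, *Zbtb7b* to *Runx3* and *Prdm1* to *Bcl6* cross the line.

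Side by side with the 10 factors, the Th17 transcription factors had 0 genes called higher and 2 lower of 10, with *Maf* among the lower ones (6445 and 2509 reads, log2 ratio -1.19). The median over them was -0.42. *Stat3*, which carries the IL-6 signal, had 8830 and 8782 reads and a log2 ratio of 0.17, and *Irf4* and *Batf* had log2 ratios of -0.51 and -0.54. *Ahr* had 1331 and 706 reads (-0.74) and *Rora* 2605 and 1835 reads (-0.33). Of 19 family relatives of the factors, 12 passed the minimum, with 1 called higher (*Gata1*) and 1 lower (*Prdm10*, 21 and 3 reads). Of 24 partners and cofactors, all 24 passed, with 1 called higher (*Satb1*) and 1 lower (*Gfi1*). Some genes stand in more than 1 list, so the counts and medians of the lists are not separate. *Gfi1* is also among the lower Th2 genes, and *Tcf7* is among the higher genes of both the Tfh and the effector and memory lists.

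**Figure D5:**
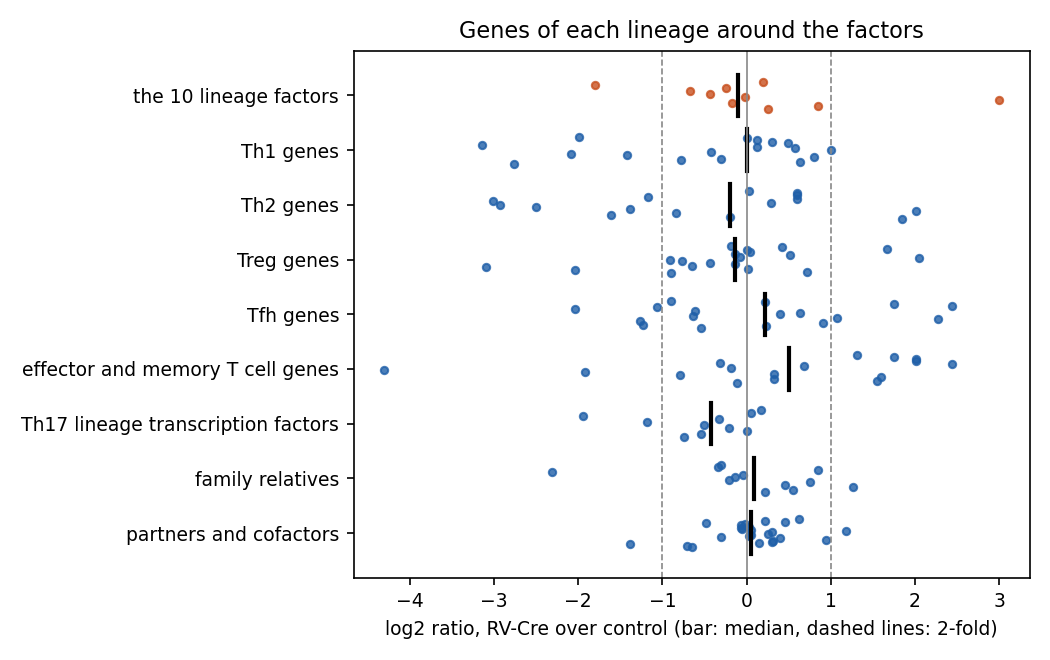
Log2 ratio of RV-Cre over control (dashed lines at 2-fold) for the genes past the minimum among the 10 factors and in 8 lists (the marker lists of cell identity are left out), 1 point per gene, with the median as a bar. A gene in more than 1 list is drawn in each. The points of the Th1, Th2, Treg and Tfh lists spread to both sides of 0, and the medians drawn lie between -0.42 and 0.50.

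Markers of T cell identity and of other cell types also differed between the libraries, although the cells came from a naïve CD4 T cell isolation and were sorted for GFP. T cell identity genes were present in both, with 9 of 12 listed genes in the tables and a summed level of 1798 CPM in the control and 2559 CPM in the RV-Cre library. *Cd3d* (3662 and 7475 reads) and *Cd3e* (1453 and 2884 reads) were called higher and 0 lower. Of the 9, 8 had a log2 ratio above 0 and 1 below. The latter was *Cd5*, with 3800 and 1696 reads and a log2 ratio of -0.99, just short of 2-fold. The 8 CD8 T and NK cell markers, cell types that also use *Tbx21* and *Eomes*, summed to 54.1 and 78.5 CPM. Of these, 5 passed the minimum, *Cd8a*, *Cd8b1* and *Klri2* being called higher and *Klrd1* (240 and 57 reads) and *Klre1* (32 and 5 reads) lower. *Klra8* was at 0 in both, *Ncr1* had 0 and 8 reads, and *Klrb1c* had 12 and 0 reads. The 8 B cell markers summed to 5.00 and 10.8 CPM, with 5 past the minimum and 3 called higher, and *Pax5* at 0 in both. The 13 myeloid and dendritic cell markers summed to 28.3 and 48.6 CPM, with 10 past the minimum, 3 called higher and 2 lower, and *Adgre1* and *Siglech* at 0 in the control library. The 6 erythroid markers summed to 3.19 and 19.2 CPM, with 3 past the minimum and called higher. The ribosomal RNA gene *Rn45s* took 8.50% of the control and 14.6% of the RV-Cre reads. The part of these differences in the values of the factors was not tested.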

How the data were processed

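RNA-seq was performed on 1 library per condition, and groups were taken from the sample titles. The authors deposited counts of reads per gene symbol, which had not been normalized. Per the labels, the submitters' processing notes name bcl2fastq 2.20.0.422, Bowtie2, bedtools and mm10. Their settings, the gene annotation and the use of strand are not given in the sources used here. The use of molecular identifiers is not given there either. Reads from 1 amplified molecule are not independent, and where such reads were counted the true error is wider than the intervals.

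Counts were scaled with TMM factors (edgeR 4.0.16, R 4.3.3; 1.06 for control and 0.941 for RV-Cre). Ratios are RV-Cre over control. Log2 ratios include an added 1, and ratios with intervals (scipy 1.17.1) do not. With 1 library per condition no test across genes was possible, and lists are described by counts and medians. The 79 rows that share a symbol were left out of lists. Positions, overlaps and promoters came from RefSeq GRCm38.p6, and strands and last exons from GENCODE M21. The 10 factors, the 13 gene lists and the 8 pairs were chosen with earlier results of these data known. Named genes were the factors and their pairs, any relative, cofactor or Th17 factor, and of other lists the 3 highest, the 3 lowest and the defining genes. Others (markers named at or near 0, *Gata2*, *Id4* and *Rn45s*) were named after their values were seen. The alternatives were other scalings (library totals with and without *Rn45s*, DESeq2 1.42.0 size factors, median centring, quantile, *Gapdh*), pseudocounts of 0.1 and 10, other minimums, fold thresholds of 1.5 and 3, and 99% intervals. The procedure was tested on counts drawn with known ratios and with counting error only, where 95.5% of the intervals held the true ratio. The intervals assume that same error, so this checks the computation and says nothing of the spread between replicates. Protein identity between related factors was not analysed here. Some genes and pairs that the rule allows are not reported here.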

Additional observations from a re-analysis of the deposited data

How the results depend on the processing

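No paired analysis was possible because a single library stood in each arm, and for the same reason no library could be left out. Over 8 scalings and pseudocounts, 69 of 80 values of the factors stayed within their 95% counting interval and 11 moved beyond it. That interval is wider for genes with fewer reads, so this count does not measure how stable a value is. *Eomes* stayed within it while ranging from 0.31 to 1.24. *Gata3* ranged from 2.90 to 3.41 and *Tbx21* from -1.81 to -1.38, beyond 2-fold in each case. *Gapdh*, with 956 and 634 reads, raised the median of all genes by 0.42 (log2). With it *Gata3* was at 3.41, *Tbx21* at -1.38, *Foxp3* at 0.24, *Bcl6* at 0.67, *Ikzf2* at -0.26, *Id2* at 0.40, *Id3* at -0.018 and *Zbtb7b* at 0.61, and 2 factors were called higher, *Eomes* joining *Gata3*. *Id2* moved to 0.060 with median centring, 0.076 with quantile normalization and 0.076 with library totals without *Rn45s*. These 3 scalings raised the median of all genes by 0.075, 0.054 and 0.089. The signs of *Foxp3* and *Prdm1* with *Gapdh*, and of *Id2* with *Gapdh* and these 3, were positive instead of negative. With *Gapdh*, *Foxp3*, *Prdm1* (0.17) and *Id2* still lay below the median gene (0.41).

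With a fold threshold of 1.5, 2 factors were higher and 2 lower, against 23.5% and 22.9% of all genes, and with 3 these shares were 8.32% and 5.52%, with 1 factor each way. Of all genes, 24.3% were higher and 6.40% lower with *Gapdh*, and 7.19% were higher where both libraries had to reach the minimum and 7.58% where the log2 minimum was 6. The other settings kept 1 factor higher and 1 lower. With 99% intervals, 4 factors, without *Foxp3*, left out 1, against 66.9% of all genes past the minimum, as did 5 pairs. Depth limits *Eomes* most, at 14 and 23 reads.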
